A study of Mus musculus with 188 samples.

Results

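The BXD strains of the Hybrid Mouse Diversity Panel fell apart on a single class II gene, H2-Ea, and were set against each other on that basis. The strains were chosen by their measured strain means of 1 H2-Ea probe set (a set of probes read as 1 value, here called the splitting probe set), with means above 8 on the log2 scale taken as H2-Ea-expressing and means below 5 as H2-Ea-null. The rule placed 17 strains (30 arrays) in the H2-Ea-expressing group and 9 strains (17 arrays) in the H2-Ea-null group. These 26 strains (47 arrays) are part of 94 strains (188 arrays) of aorta RNA from male mice aged 16 weeks on a chow diet, hybridised to Affymetrix HT_MG-430A arrays. The H2-Ea-expressing strains were BXD1, BXD5, BXD6, BXD9, BXD11, BXD12, BXD18, BXD21, BXD22, BXD27, BXD28, BXD33, BXD34, BXD36, BXD38 and BXD40 (all /TyJ) and BXD24/TyJ-Cep290<rd16>/J. The H2-Ea-null strains were BXD2, BXD8, BXD13, BXD14, BXD15, BXD20, BXD39 and BXD42 (all /TyJ) and BXD29-Tlr4<lps-2J>/J. BXD strains are recombinant inbred lines of DBA/2J and C57BL/6J, each line fixed for a different mosaic of both genomes, and the labels call all of them wild-type, including the lines whose names carry the Cep290 and Tlr4 alleles. Both parents are in the series, DBA/2J with 2 arrays and C57BL/6J with 3. BXD19/TyJ lay between the thresholds with a mean of 6.43, which averages 2 arrays at each level, and BXD32/TyJ, whose array descriptions carry an unexplained suffix, was left out by the rule.

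H2-Ea codes for the alpha chain of H2-E, a class II molecule of the major histocompatibility complex (MHC) that presents peptides to helper T cells, and its partner chain is coded by H2-Eb1. H2-Aa and H2-Ab1 code for the other class II molecule, H2-A, while Cd74 codes for the invariant chain that escorts both and Ciita for their master transcriptional activator. These genes lie on chromosome 17 (except Cd74 and Ciita) among the class I genes, such as H2-K1 and H2-D1, which present peptides to cytotoxic T cells. The complex is inherited in a few haplotypes, and the b haplotype of C57BL/6J is known to make no H2-E alpha chain, while the d haplotype of DBA/2J makes one. In the aorta, class II molecules are known chiefly from macrophages, dendritic cells and B cells of the wall and of the fat around it.

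Promoter sequence is shown for the class II partners of H2-Ea and for the class I genes that separated the strain groups. Each is the stretch of 150 bases before the RefSeq gene start on GRCm38.p6, the reference assembly, which is built from C57BL/6J, and is printed 5′ to 3′ on the strand of the gene. Capitals mark the motif GATTGG or its reverse complement CCAATC, the core of the Y box, an element known from class II promoters. Of 32851 promoter windows of this length, 10.9% held the motif on either strand. The windows are H2-Eb1 at chr17:34305717-34305866 (+), H2-Aa at chr17:34287824-34287973 (-), H2-D1 at chr17:35262944-35263093 (+) and H2-Q10 at chr17:35469939-35470088 (+).
H2-Eb1: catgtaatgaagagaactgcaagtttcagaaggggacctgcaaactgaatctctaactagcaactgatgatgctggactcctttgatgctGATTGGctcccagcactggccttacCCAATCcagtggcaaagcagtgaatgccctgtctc
H2-Aa: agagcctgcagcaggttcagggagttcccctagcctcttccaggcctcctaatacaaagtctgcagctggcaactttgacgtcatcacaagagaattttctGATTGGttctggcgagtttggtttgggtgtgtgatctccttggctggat
H2-D1: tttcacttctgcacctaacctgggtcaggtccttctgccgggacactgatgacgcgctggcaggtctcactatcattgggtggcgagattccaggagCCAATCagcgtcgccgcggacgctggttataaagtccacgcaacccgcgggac
H2-Q10: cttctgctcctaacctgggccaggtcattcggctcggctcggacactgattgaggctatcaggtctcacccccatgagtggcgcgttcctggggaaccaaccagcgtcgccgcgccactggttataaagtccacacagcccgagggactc
H2-Eb1 holds 1 copy on each strand, H2-Aa 1 copy on the gene's strand, H2-D1 1 copy on the opposite strand, and the H2-Q10 window holds no match. A match describes these letters only, and the H2-Ea promoter is named without a sequence.

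The values that chose the groups left a wide gap and are given as a description. On the log2 scale the splitting probe set had a lowest, median and highest strain mean of 8.60, 9.55 and 10.62 in the H2-Ea-expressing strains, against 2.82, 2.95 and 3.15 in the H2-Ea-null strains. The means nearest the thresholds were 8.60 in BXD24/TyJ-Cep290<rd16>/J and 3.15 in BXD20/TyJ, with only BXD19/TyJ in between. Single arrays divided in the same way, with all 30 arrays of H2-Ea-expressing strains above 8 (8.50 to 10.90) and all 17 arrays of H2-Ea-null strains below 5 (2.72 to 3.21). DBA/2J arrays stood at 9.52 and 9.43, inside the H2-Ea-expressing range, and C57BL/6J arrays at 3.10, 3.21 and 2.96, at the level of the H2-Ea-null strains. A second H2-Ea probe set, 1422891_at, ran from 5.42 to 6.77 in H2-Ea-expressing strains and from 4.02 to 4.94 in H2-Ea-null strains, a smaller gap in the same direction. The third, 1426202_at, averaged 2.98 and 2.96 and did not tell the groups apart.

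**Figure D1:**
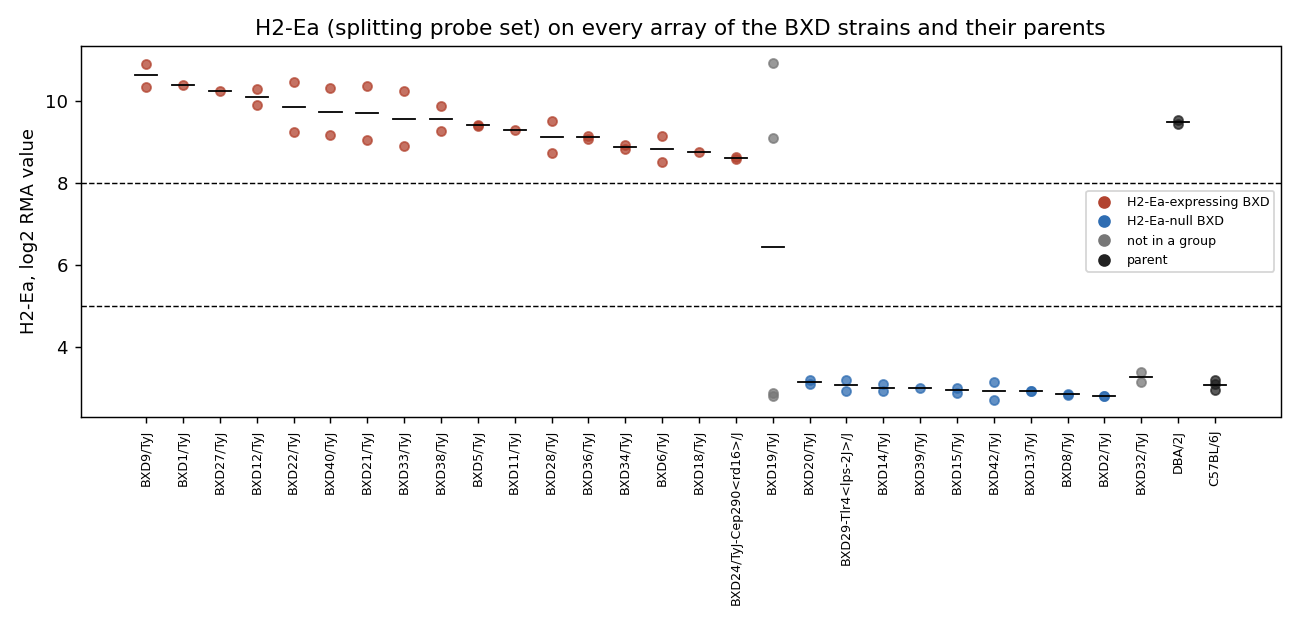
H2-Ea (splitting probe set, log2 RMA value) on every array of the BXD strains and their parents, with 1 point per array and a bar at each strain mean; dashed lines mark the thresholds of 8 and 5. All H2-Ea-expressing arrays lie at 8.50 or above and all H2-Ea-null arrays at 3.21 or below, while the 4 BXD19/TyJ arrays are divided between both levels.

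The tissue was checked against defining genes. Over the 26 strains the smooth muscle actin gene Acta2 had a median strain mean of 12.39, the smooth muscle myosin gene Myh11 9.30, the elastin gene Eln 9.21 and the endothelial cadherin gene Cdh5 6.44. Genes of fat were read too, with Ucp1, the uncoupling protein of brown fat, at 12.72 and the adipokine gene Adipoq at 12.14. In such bulk RNA, fewer cells of a type and less RNA per cell cannot be told apart. Arrays also differed in keratin, T cell precursor and skeletal muscle genes from outside the vessel wall. A squamous epithelium score (mean of the centred log2 values of its listed genes) was above 1 on 3 of 30 H2-Ea-expressing arrays and on 8 of 17 H2-Ea-null arrays, and a thymocyte score was above 1 on 3 arrays of each group. A skeletal muscle score was above 1 on 14 of 30 H2-Ea-expressing arrays (median 0.32) and on 10 of 17 H2-Ea-null arrays (median 1.47), over a range of -4.19 to 4.44.

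The contrast of the groups asks which other transcripts differ between BXD strains that differ at H2-Ea. Of 22326 probe sets other than the splitting one, 12 (0.0537%) passed a Benjamini-Hochberg adjusted p of 0.05 in limma on 1 mean per strain, 9 of them higher (0.0403%) and 3 lower (0.0134%) in H2-Ea-expressing strains. At an unadjusted p of 0.05, 1229 probe sets (5.5%) passed, of which 640 (2.87%) were higher and 589 (2.64%) lower. The called probe sets read class I genes (H2-D1, H2-Q10), H2-Ea itself, the metabolic enzyme gene Glo1, the translation factor gene Abcf1 and the zinc finger gene Zfp101, with 4 more that carry no symbol or several. The H2-Ea probe set among them reads the gene that chose the groups and is a description only. The strain groups did not overlap at 6 probe sets (0.0269% of all), with the H2-Ea one among them.

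H2-D1, a classical class I gene, showed the widest separation. Its probe set 1452544_x_at had a lowest, median and highest strain mean of 9.71, 10.17 and 10.72 in H2-Ea-expressing strains, against 3.31, 3.42 and 3.77 in H2-Ea-null strains. The difference was 6.72 on the log2 scale (SE 0.09, limma adjusted p = 2.9e-28), and each of the 26 strains lay nearer the mean of its own group. A second probe set, 1427651_x_at, averaged 9.80 ± 0.25 in H2-Ea-expressing strains and 3.43 ± 0.14 in H2-Ea-null strains (SD, n = 17 and 9), a difference of 6.36 (limma adjusted p = 1.0e-27). Probe set 1425614_x_at, which is annotated with 2 gene symbols and is therefore left unnamed, followed it with a difference of 6.27 (limma adjusted p = 1.5e-24).

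The other 3 probe sets of H2-D1 did not differ in this way. The brightest of them, 1451784_x_at, averaged 10.72 ± 0.26 in H2-Ea-expressing strains and 10.82 ± 0.32 in H2-Ea-null strains (SD, n = 17 and 9), a difference of -0.10 (95% interval -0.33 to 0.13, limma adjusted p = 0.96). The remaining pair stood near the bottom of the scale in both groups, 1450170_x_at at 3.70 and 3.59 and 1451934_at at 3.16 and 3.15. Probe sets of H2-D1 thus disagreed by more than 6 on the log2 scale about the same contrast. Probe sequences were not used here, and the part that sequence differences between strains under the probes have in these values was not tested.

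H2-Q10, a class I gene whose product is known to be secreted, mainly by the liver, ran the opposite way. Its strain means had a lowest, median and highest value of 3.49, 3.86 and 4.45 in H2-Ea-expressing strains, against 6.14, 6.79 and 8.57 in H2-Ea-null strains. H2-Q10 was lower by 3.34 on the log2 scale (a difference of -3.34, SE 0.26, limma adjusted p = 2.5e-09), with no overlap. H2-Ea-null strains were themselves spread, 5 of them at 6.79 or below and 4 at 8.03 or above. H2-Q10 was the only one of 12 measured genes of the class I list that was called by its brightest probe set. Over that list the median difference was -0.23, against 0.02 over all probe sets. H2-K1, another classical class I gene, averaged 9.13 ± 0.31 in H2-Ea-expressing strains and 9.58 ± 0.46 in H2-Ea-null strains (SD, n = 17 and 9), which was not called (limma adjusted p = 0.72).

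Glo1, which codes for glyoxalase 1, the enzyme that detoxifies methylglyoxal, was higher in H2-Ea-expressing strains. Probe set 1451240_a_at had a lowest, median and highest strain mean of 6.99, 8.50 and 8.85 in H2-Ea-expressing strains, against 6.93, 7.21 and 8.03 in H2-Ea-null strains. The difference was 1.06 (SE 0.18, limma adjusted p = 0.0084), that of 1424108_at was 0.95 (limma adjusted p = 0.036), and that of the third probe set, 1424109_a_at, was 0.79 without passing (limma adjusted p = 0.24). Probe set 1424108_at stayed called in 5 of the 26 fits that each left out 1 strain, namely those without BXD12/TyJ, BXD22/TyJ, BXD27/TyJ, BXD39/TyJ or BXD40/TyJ. The groups overlapped because of 3 strains on the wrong side of the midpoint. BXD12/TyJ and BXD27/TyJ, both H2-Ea-expressing, stood at 7.27 and 6.99, and BXD39/TyJ, H2-Ea-null, at 8.03.

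The same 3 strains were the exceptions at 1435872_at, a called probe set without a gene name here. It had a lowest, median and highest strain mean of 3.88, 4.86 and 8.19 in H2-Ea-expressing strains, against 4.55, 8.13 and 8.31 in H2-Ea-null strains, a difference of -2.63 (SE 0.47, limma adjusted p = 0.015). BXD12/TyJ at 8.19 and BXD27/TyJ at 8.01 matched the H2-Ea-null level, and BXD39/TyJ at 4.55 the H2-Ea-expressing one. BXD27/TyJ and BXD39/TyJ have 1 array each and BXD12/TyJ has 2, which stood at 8.15 and 8.22. Without BXD2/TyJ, BXD14/TyJ or BXD15/TyJ, each alone, the probe set was not called.

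Abcf1, an ATP-binding protein of translation initiation, was lower by 0.53 in H2-Ea-expressing strains at 1 of 6 probe sets. Probe set 1426921_at had a lowest, median and highest strain mean of 5.59, 6.04 and 6.52 in H2-Ea-expressing strains, against 6.44, 6.59 and 6.67 in H2-Ea-null strains (limma adjusted p = 0.012). Only BXD21/TyJ, BXD24/TyJ-Cep290<rd16>/J and BXD36/TyJ lay nearer the other group. The other 5 Abcf1 probe sets differed by -0.09 to 0.08 and were not called. Probe set 1426921_at was itself not called with the title number run or the tissue scores as covariates, or without the arrays above 1 on the squamous or thymocyte score. Zfp101, a zinc finger gene, was higher by 0.35 at 1425831_at, at 3.52 ± 0.19 in H2-Ea-expressing strains and 3.17 ± 0.11 in H2-Ea-null strains (SD, n = 17 and 9, limma adjusted p = 0.0497), both near the bottom of the scale. Its brighter probe set, 1450090_at, differed by -0.09 and was not called, and the call of 1425831_at stayed in 5 of the 26 fits that each left out 1 strain (BXD22/TyJ, BXD27/TyJ, BXD36/TyJ, BXD40/TyJ or BXD42/TyJ).

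Of the called probe sets without a symbol, 1451593_at averaged 5.83 ± 0.73 in H2-Ea-expressing strains and 3.30 ± 0.13 in H2-Ea-null strains (SD, n = 17 and 9), with no overlap (difference 2.53, limma adjusted p = 1.7e-07). Probe set 1424929_a_at averaged 6.20 ± 0.15 and 5.77 ± 0.23, a difference of 0.42 (limma adjusted p = 0.012), and 4 strains lay nearer the other group.

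**Figure D2:**
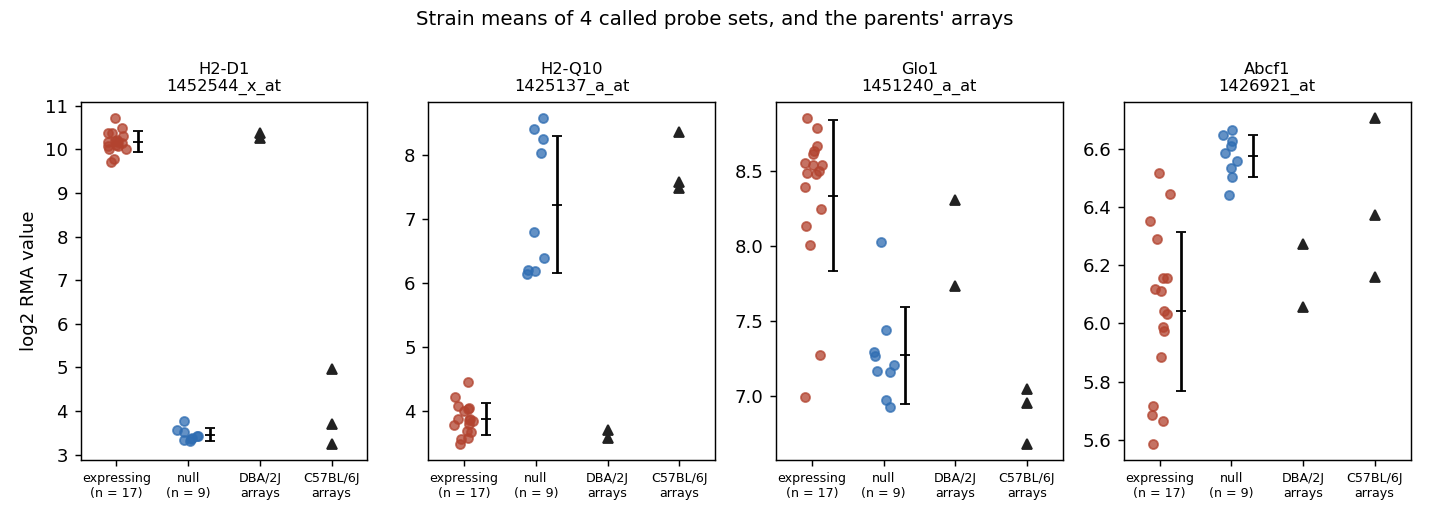
Log2 RMA values of H2-D1, H2-Q10, Glo1 and Abcf1, with 1 point per strain mean in the H2-Ea-expressing (n = 17) and H2-Ea-null (n = 9) groups, black bars for the group mean ± SD, and triangles for single arrays of DBA/2J and C57BL/6J. H2-D1 and H2-Q10 do not overlap between the groups, while Glo1 has 2 H2-Ea-expressing strains at 7.27 and 6.99 and 1 H2-Ea-null strain at 8.03.

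The parents gave the same directions in arrays that the rule did not use. DBA/2J minus C57BL/6J, tested in a limma fit of 186 arrays of 93 strains (all except BXD32/TyJ), called 117 probe sets (0.524%), 72 without DBA/2J replicate 1 and 54 without DBA/2J replicate 2. Of the 12 probe sets called between the BXD groups, 12 had the same sign between the parents and 6 were called, namely both of H2-D1, 1425614_x_at, H2-Q10, 1435872_at and Glo1 1424108_at. Leaving out 1 parental array left 6 of the 12 called without C57BL/6J replicate 3 and 5 of the 12 without any other, where Glo1 1424108_at was not called. H2-D1 1452544_x_at stood at 10.37 and 10.25 on the DBA/2J arrays, against 4.96, 3.69 and 3.26 on the C57BL/6J arrays. H2-Q10 stood at 3.58 and 3.70 on the DBA/2J arrays, against 7.58, 8.35 and 7.48 on the C57BL/6J arrays. Glo1 1451240_a_at stood at 7.73 and 8.31 on the DBA/2J arrays, against 7.05, 6.69 and 6.96 on the C57BL/6J arrays, without being called (limma adjusted p = 0.24). Abcf1 1426921_at overlapped between the parents, at 6.27 and 6.06 on the DBA/2J arrays and 6.16, 6.71 and 6.37 on the C57BL/6J arrays.

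Calls lay on chromosome 17 where they could be placed. Of 843 probe sets on chromosome 17 other than the splitting one, 8 (0.949%) were called and 96 (11.4%) passed an unadjusted p of 0.05. The 8 include the H2-Ea probe set 1422891_at, which reads the gene that chose the groups and is a description only. Of 16915 probe sets on other chromosomes, limma called 0, while 904 (5.34%) passed unadjusted, and the other 4 calls were on probe sets without a place. Among single chromosomes apart from 17 and Y the unadjusted share ran from 3.39% on chromosome 16 to 8% on chromosome 3. Without the arrays above 1 on the squamous or thymocyte score, 16 H2-Ea-expressing and 6 H2-Ea-null strains remained, and the unadjusted share was 13% on chromosome 17 and 5.95% on chromosome 3. In that fit 12 probe sets were called, 9 of them shared, and Abcf1, Zfp101 and 1424929_a_at were not among them. With the squamous, thymocyte and skeletal muscle scores as covariates 9 of the 12 were called, again without these 3. Leaving out BXD8/TyJ alone gave 2 calls on other chromosomes, Trip13 and S100a9.

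Along chromosome 17 the share passing unadjusted thinned out with distance from H2-Ea in gene order. Within 50 genes on either side, 24.2% of 99 probe sets passed, and 18% of 89 passed at 51 to 100 genes. The share was 13.2% at 101 to 200 genes, 8.58% at 201 to 400 genes and 5.42% beyond 400 genes. Counted in genes from H2-Ea, Glo1 stood at -100, Zfp101 at -45, H2-D1 at 63, H2-Q10 at 69 and Abcf1 at 93. Neighbouring genes of a recombinant inbred line tend to come from the same parent, so the probe sets of a stretch are not independent of each other. Ly6g6c, at 42 genes, was named after its value was seen, since it had the largest difference on the chromosome that was not called (-1.64, limma adjusted p = 0.58).

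**Figure D3:**
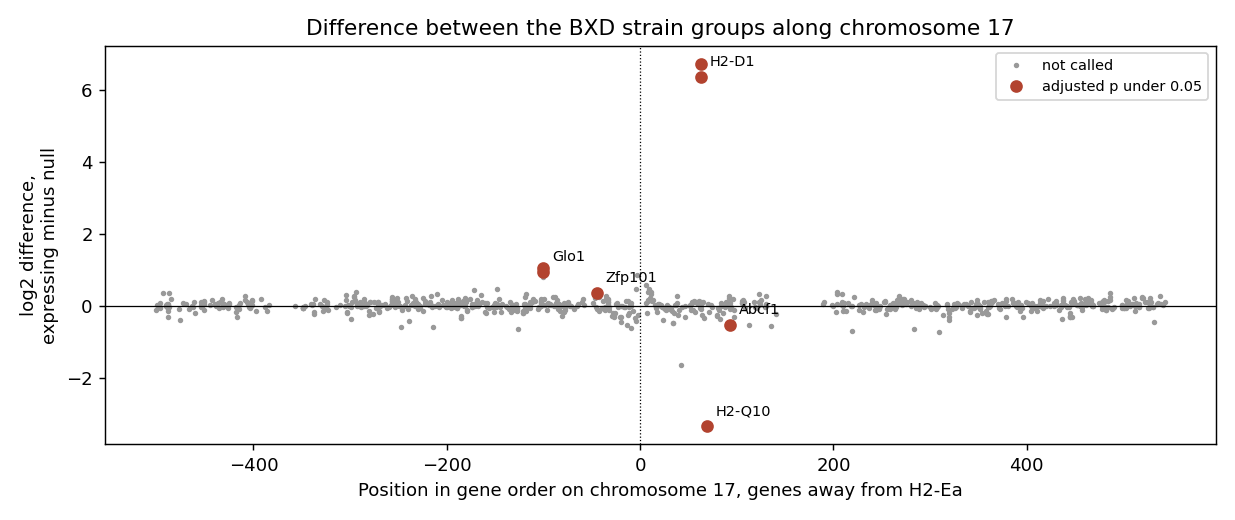
Log2 difference (H2-Ea-expressing minus H2-Ea-null) of each chromosome 17 probe set against its gene's position in gene order, counted in genes from H2-Ea; red points passed an adjusted p of 0.05. The called genes lie between -100 (Glo1) and 93 (Abcf1), and H2-D1 (6.72 and 6.36) and H2-Q10 (-3.34) stand clear of the other probe sets.

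The class II partners of H2-Ea were not called between the groups. Of the 15 measured genes of the class II list, limma called 0, beside 0.0537% of all probe sets. At an unadjusted p under 0.05 there were 2, 1 higher and 1 lower, beside 5.5% of all probe sets. The median difference was -0.20, against 0.02 over all probe sets. H2-Eb1, whose product pairs with that of H2-Ea, had a lowest and highest strain mean of 7.25 and 9.27 in H2-Ea-expressing strains, against 7.24 and 10.02 in H2-Ea-null strains. Its difference was -0.25 (95% interval -0.82 to 0.31, limma adjusted p = 0.96). Cd74 differed by -0.26 and H2-Ab1 1450648_s_at by -0.42, neither called. A dimmer H2-Ab1 probe set, 1425477_x_at, went the other way, higher by 0.46 without passing (95% interval 0.054 to 0.86, limma adjusted p = 0.87). H2-Aa was higher by 0.85 without passing (95% interval 0.0011 to 1.71, limma adjusted p = 0.90), and by 0.44 without BXD20/TyJ. These intervals are wide, so equal levels were not shown.

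A single strain stood low for H2-Aa. BXD20/TyJ, H2-Ea-null, had 4.33 and 3.37 on its arrays, a mean of 3.85, the lowest of all 94 strains, with the next lowest at 5.40. In the same strain H2-Ab1 was at 8.30, H2-Eb1 at 8.07 and Cd74 at 9.16, which ranked 49, 41 and 28 from the lowest of 94. The 1 H2-Aa probe set on the array gives no second reading. BXD20/TyJ was singled out after its values were seen.

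BXD2/TyJ stood high for the same genes. It was the highest H2-Ea-null strain for 12 of 15 class II list genes, with Cd74 at 10.93 and H2-Ab1 at 10.21, and for 8 of 10 measured B cell genes, with the immunoglobulin joining chain gene Jchain at 10.16 and the immunoglobulin heavy chain gene Ighm at 5.53. The next highest H2-Ea-null strains were at 8.47 for Jchain and 3.45 for Ighm. Without BXD2/TyJ the median difference of the class II list was -0.03. The part of B cell RNA in the class II values was not tested.

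Within the 17 H2-Ea-expressing strains, H2-Ea was set against its partners. The splitting probe set chose the strains, so its relations are a description. Pearson's r over the strain means was 0.960 for Cd74, 0.952 for H2-Ab1, 0.936 for H2-Aa and 0.936 for H2-Eb1 (Spearman's rho 0.971, 0.975, 0.953 and 0.946). H2-DMa, which helps load peptides onto class II molecules, had r = 0.781 (rho 0.811), and Ciita, near the bottom of the scale at 3.01 to 3.70, had r = 0.256 (rho 0.336).

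The second H2-Ea probe set, 1422891_at, which the rule did not use but which reads the same gene, was tested by two-sided permutation over the same strains. Cd74 had r = 0.896 (rho 0.917, permutation p = 1e-05, the smallest that 100000 resamples can give, adjusted 6e-05 over the 6 genes tested), and without the 2 strains farthest from the median r was 0.934. H2-Ab1 had r = 0.875 (rho 0.912, permutation p = 2e-05, adjusted 6e-05), H2-Aa 0.841 (rho 0.887, permutation p = 3e-05, adjusted 6e-05) and H2-Eb1 0.852 (rho 0.855, permutation p = 6e-05, adjusted 9e-05). Without the 2 strains these were 0.877, 0.882 and 0.867. H2-DMa had r = 0.704 (rho 0.762, permutation p = 0.0021, adjusted 0.0025; 0.879 without the 2 strains), and no relation was shown for Ciita (r = 0.091, rho 0.221, permutation p = 0.73, adjusted 0.73; 0.374 without them).

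For the splitting probe set the values were close without its extreme strains, except for H2-DMa and Ciita. Without BXD9/TyJ and BXD24/TyJ-Cep290<rd16>/J, the strains farthest from the median of H2-Ea, r was 0.946 for Cd74, 0.934 for H2-Ab1, 0.910 for H2-Aa, 0.911 for H2-Eb1, 0.710 for H2-DMa and 0.038 for Ciita. In the 13 strains with title numbers from 1067, r with the second probe set was 0.874 for Cd74, 0.884 for H2-Ab1, 0.826 for H2-Aa and 0.848 for H2-Eb1, and no correlation is given over the 4 strains with lower title numbers, which are fewer than 6. Cell type scores also moved with the second probe set over the 17 strains. The B cell score had r = 0.773 (rho 0.792, permutation p = 0.00039, adjusted 0.00059 over 3 scores) and the T cell score r = 0.765 (rho 0.885, permutation p = 5e-05, adjusted 0.00015). The macrophage and dendritic cell score had r = 0.353 (rho 0.333, permutation p = 0.17, adjusted 0.17). Without the 2 strains farthest from its median these were 0.870, 0.691 and 0.321. Their part in the relation of H2-Ea with its partners was not tested.

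**Figure D4:**
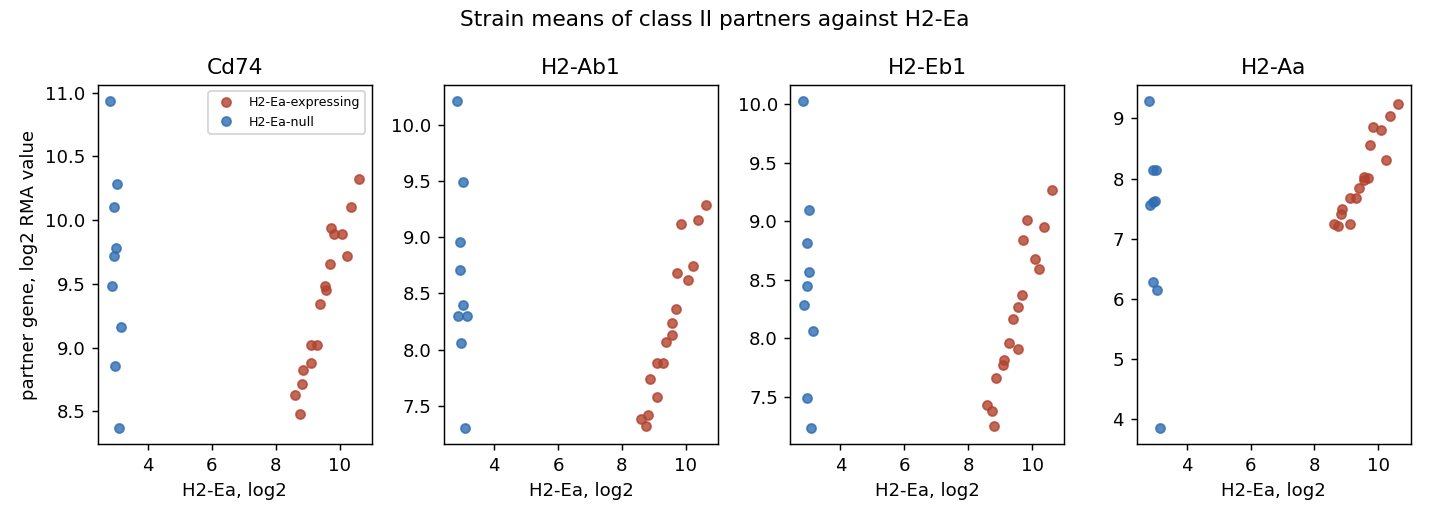
Strain means (log2 RMA values) of Cd74, H2-Ab1, H2-Eb1 and H2-Aa against H2-Ea, with 1 point per strain of the H2-Ea-expressing (red, n = 17) and H2-Ea-null (blue, n = 9) groups. H2-Ea-expressing strains form a rising band (r = 0.960, 0.952, 0.936 and 0.936), and H2-Ea-null strains span much of the same vertical range at an H2-Ea level near 3, with BXD20/TyJ at 3.85 for H2-Aa.

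Of the other gene lists, limma called 0 members each of the class III region (34 measured), the extended class II region (15), the extended class I region (20), the class I processing machinery (9), the interferon gamma response (13), B cells (10), T cells (10), macrophages and dendritic cells (14), smooth muscle contraction (13), elastic fibre and matrix (14), endothelium (12), thymocytes (6), skeletal muscle (11), cardiac muscle (8), brown adipocytes (7), adipocytes (8) and erythroid cells (3). Each gene stands here by its brightest probe set, which for Glo1 and Abcf1 is not a called one. Over all probe sets 0.0537% were called. At an unadjusted p of 0.05, 5 of 34 class III genes, 3 of 13 interferon gamma response genes and 3 of 7 brown adipocyte genes were higher and 0 lower, beside 2.87% higher over all probe sets and 24.2% in either direction within 50 genes of H2-Ea. Differences were above 0 at 57.8% of all probe sets, so counts of signs are read against that share. Endothelial genes had differences above 0 at 12 of 12 (median 0.13) and brown adipocyte genes at 7 of 7 (median 0.20). Smooth muscle and matrix medians were -0.05 and 0.00. T cell genes were below 0 at 10 of 10 (median -0.31) and skeletal muscle genes at 10 of 11 (median -1.24), with 0 skeletal muscle genes past an unadjusted p of 0.05. B cell genes were below 0 at 9 of 10 (median -0.29) and macrophage and dendritic cell genes at 11 of 14 (median -0.16). At an unadjusted p of 0.05, 2 B cell genes were lower and 0 higher, beside 2.64% lower over all probe sets.

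Squamous epithelium genes, which mark the lining of the oesophagus and similar surfaces, had the lowest median of any list. Of 10 measured, 0 were called and 6 passed an unadjusted p of 0.05, all lower in H2-Ea-expressing strains (2.64% of all probe sets), and the median difference was -1.46. The keratin gene Krt4 averaged 3.94 ± 1.86 in H2-Ea-expressing strains and 7.70 ± 4.10 in H2-Ea-null strains (SD, n = 17 and 9), a difference of -3.76 (limma adjusted p = 0.60). Krt13 differed by -3.52, Sprr3 by -3.26 and Sprr1a by -2.35, without passing. Strain scores of the list spanned -1.16 to 2.03 in H2-Ea-expressing strains and -1.06 to 3.97 in H2-Ea-null strains, so the groups overlapped.

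Title numbers of the arrays fall into a lower run up to 1038 and a higher run from 1067, and the groups were unevenly spread over them. The lower run held 4 H2-Ea-expressing and 6 H2-Ea-null strains, and the higher run 13 and 3. The labels do not say what the numbers stand for. Each run is a subset of the strains on which the calls were made, so a kept sign is no separate test. H2-D1 1452544_x_at differed by 6.68 in the lower run and 6.78 in the higher, and H2-Q10 by -3.02 (limma adjusted p = 0.21) and -3.77 (limma adjusted p = 7.5e-06). Glo1 1451240_a_at differed by 1.07 (limma adjusted p = 0.28) and 1.10 (limma adjusted p = 0.995), Abcf1 by -0.44 and -0.54, and 1435872_at by -2.63 and -2.94, with none of these 3 called in either run. In the lower run limma called 5 probe sets and in the higher run 4, with both H2-D1 probe sets and 1425614_x_at among each. With the run as a covariate 8 were called, and Abcf1, Zfp101, 1424929_a_at and Glo1 1424108_at were not. Cd74 changed sign between the runs, at -0.67 and 0.49, as did H2-Ab1 at -0.76 and 0.31 and H2-Eb1 at -0.54 and 0.49, none of them called. Of the class II list, only H2-Aa (0.64 and 1.36), H2-DMb1 (0.14 and 0.08), H2-Oa (-0.96 and -0.02) and H2-Ob (-0.52 and -0.04) kept their sign, without being called.

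The 4 arrays labelled BXD19/TyJ were divided in a way that no other BXD strain showed at H2-Ea, where the largest range within a strain of either group was 1.32. H2-Ea was at 10.92 and 9.10 on replicates 1 and 2, and at 2.89 and 2.81 on replicates 3 and 4. H2-D1 1452544_x_at followed with 11.34 and 10.22 against 3.23 and 3.40, and H2-Q10 ran the other way with 3.78 and 4.06 against 8.31 and 8.35. Glo1 1451240_a_at was at 8.58 and 8.65 on replicates 1 and 2, and at 7.01 and 7.22 on replicates 3 and 4.

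The division of the BXD19/TyJ arrays reached beyond chromosome 17. At 34 of 22327 probe sets, the values of one pair lay more than 2 above both values of the other. Of these, 4 were on chromosome 17 (the splitting one among them), 19 on other chromosomes and 11 without a place. Besides the splitting one, 843 probe sets are on chromosome 17 and 16915 on other chromosomes. No such count is given here for arrays of other strains. Pttg1, the securin gene on chromosome 11, was at 5.98 and 5.98 on replicates 1 and 2, and at 11.32 and 11.36 on replicates 3 and 4. Cxcl14, a chemokine gene on chromosome 13, was at 10.25 and 10.50, and at 7.33 and 6.23. Ifi205, an interferon-inducible gene on chromosome 1, was at 2.74 and 2.63, and at 6.46 and 6.91. These genes were picked for the size of the gap and their values carry no test. The gaps also include the keratin genes Krt4 and Krt13 and the muscle gene Myoz1, which mark tissue outside the vessel wall. Over all probe sets, r was 0.987 between replicates 1 and 2 and 0.975 between replicates 3 and 4, while replicates 2 and 4, from different pairs, had 0.986. The labels give all 4 arrays the same strain name, and whether they are of 1 strain was not settled here. BXD19/TyJ entered neither BXD group except in the alternative split at 6.5, where its mean put it with the H2-Ea-null strains. Its arrays are part of the fit behind the parental contrast, which called 121 probe sets without them, 6 of the 12 among these.

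**Figure D5:**
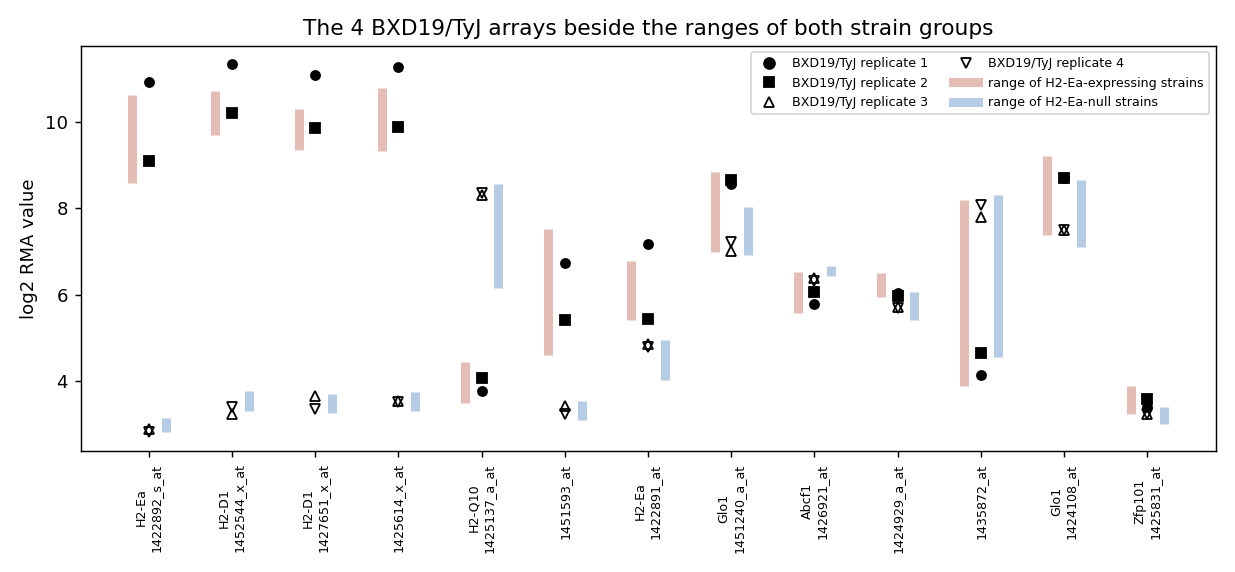
Log2 RMA values of the splitting H2-Ea probe set and the 12 called probe sets on the 4 BXD19/TyJ arrays (black symbols, replicates 1 and 2 filled, 3 and 4 open), beside the ranges of strain means in H2-Ea-expressing (red bars) and H2-Ea-null (blue bars) strains. At H2-D1 and H2-Q10 replicates 1 and 2 lie near the H2-Ea-expressing range (11.34 and 10.22 for H2-D1) and replicates 3 and 4 near the H2-Ea-null range (3.23 and 3.40).

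The same split could not be made in the other crosses with C57BL/6J. Of 28 AXB and BXA strains, lines of A/J and C57BL/6J, 0 had an H2-Ea mean above 8 and 24 were below 5, with the highest at 7.79 in BXA16/PgnJ. H2-D1 1452544_x_at did separate them, above 8 in 13 strains and below 5 in 14. H2-Ea was at 3.71 to 7.79 in the 13 strains with high H2-D1 and at 2.92 to 3.25 in the 14 with low H2-D1, and H2-Q10 was at 3.73 to 5.63 and at 6.07 to 9.86. All 10 BXH strains, lines of C3H/HeJ and C57BL/6J, had H2-Ea at 3.06 to 4.77, H2-D1 at 3.32 to 4.39 and H2-Q10 at 5.79 to 9.47. Among the parents, A/J stood at 4.67 and 3.60 for H2-Ea and 10.26 and 10.01 for H2-D1, and C3H/HeJ at 5.21 and 6.62 for H2-Ea and 3.39 and 3.91 for H2-D1. These H2-Ea values are of the splitting probe set. On the second, 1422891_at, the mean was 5.13 in A/J, above the H2-Ea-null BXD range of 4.02 to 4.94. In C3H/HeJ it was 5.50, inside the H2-Ea-expressing BXD range of 5.42 to 6.77. High H2-D1 with low H2-Q10 was therefore also read in AXB and BXA strains. There the splitting probe set stood below its level in the H2-Ea-expressing BXD strains.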

How the data were processed

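The authors' deposited values are log2 expression values, 1 per probe set and array. Per the submitters' processing notes, GCOS and RMA were used. Neither their versions nor a genome build were given in the sources used here. Array medians lay between 4.55 and 4.88. Of 22416 probe sets, 89 controls and the splitting one were left out, so 22326 were tested. The platform annotation gave 17783 probe sets 1 symbol, 284 several and 4260 none. RefSeq genes (GRCm38.p6), used for symbols, chromosomes and gene order, held 17759 of those with 1 symbol and changed 0 symbols; the same release gave the promoters.

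Computations used R (4.3.3) with the packages data.table (1.17.8) and limma (3.58.1). Arrays were averaged per strain, and the strain groups were compared by limma (lmFit and eBayes, 24 residual degrees of freedom) with Benjamini-Hochberg adjustment over all tested probe sets and a threshold of 0.05. The parents were contrasted in a fit of 186 arrays of 93 strains, without BXD32/TyJ (93 residual degrees of freedom). Correlations used 100000 permutations, and those of the splitting probe set are given without p-values, since it chose the strains. No label tells whether a strain's arrays were hybridised with RNA of different mice, so p-values measure the spread between strains and arrays. The number of strains, 17 and 9, limits the precision of the group contrast, and the number of arrays that of the parental contrast. The planned AXB/BXA, BXH and between-family tests could not be made, as 0 strains exceeded 8.

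The members, the 20 gene lists and the tests were chosen with earlier results of these data known. Named were the called genes with 1 symbol (up to 10 each way on chromosome 17 and 6 each way elsewhere), called members of each list, H2-Ea and measured class II genes, with other probe sets of each; other names are said to be chosen later, or serve as tissue or cell markers. On simulated data with the real levels, 50 of 22326 probe sets were changed at each size, with noise drawn independently for each probe set. The BXD procedure recovered 74% of changes of 0.5, 90% of changes of 1 and 100% of changes of 2 and of 4 on the log2 scale, with 13 false calls. More true changes loosen the adjusted threshold, so these shares do not carry over to the real contrast with its 12 calls.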

Additional observations from a re-analysis of the deposited data

Results flagged for a closer look

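In 14 of 39 items examined in the 9 H2-Ea-null strains, 1 strain stood far from the others relative to the group's whole range. Dixon's 95% critical value was exceeded there, which chance does in about 1 group of 20. The items read the same strains and partly the same genes, so they are not separate trials. Another 13 items were examined over the BXD19/TyJ arrays, without a flag. The rule looks for 1 array far from all the others, so it cannot flag the division of these arrays into pairs. BXD2/TyJ was the far strain in 9 of the 14, always high. Its strain means were 10.62 for H2-K1 (next strain 9.67), 9.01 for H2-T10 (8.16), 6.74 for H2-M3 (5.52) and 5.77 for H2-Q4 (4.28) among class I genes. Among class II genes they were 7.61 for H2-DMa (5.96), 6.84 for H2-Oa (5.20), 4.83 for H2-DMb1 (4.14), 5.40 for H2-Ob (4.20) and 4.78 for Ciita (3.79). BXD39/TyJ, with 1 array, was far in 4 items, at 8.03 for Glo1 1451240_a_at (next 7.44), 8.66 for Glo1 1424108_at (7.79), 4.55 for 1435872_at (7.88) and 4.84 for Rfxap (5.76). BXD14/TyJ was far for H2-Q1, at 4.97 (next 3.47).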

How the results depend on the processing

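No paired analysis was possible because the replicate numbers were given in accession order and pair no arrays. No result changed direction past its threshold. The 12 calls became 2, both on chromosome 17, with 1 probe set per gene, where H2-D1 and Glo1 stand by probe sets that were not called. Those left were H2-Q10 and the second H2-Ea probe set. The latter reads the gene that chose the groups and is a description only, so H2-Q10 alone remained as a result. With the title number run as a covariate 8 were called, 5 of them on chromosome 17. In alternatives chosen after seeing the data, strains with title numbers up to 1038 alone gave 5 calls, 2 on chromosome 17 and 1 (Mogat1) on another, and strains from 1067 alone gave 4, of which 3 were on chromosome 17; fewer strains were compared there. With strain as a random block 18 were called, 1 of them (Arg1) on another chromosome. Leaving out 1 strain in turn gave 9 to 13 calls, 6 to 8 on chromosome 17 and 0 to 2 on others. Leaving out parental arrays gave 54 to 130 calls for DBA/2J minus C57BL/6J. The remaining alternatives gave 9 to 14 calls. Both H2-D1 probe sets and 1425614_x_at were called in all 40 settings that measured them, while the calls of Glo1 1424108_at and Zfp101 were lost in 24 of 40 and 29 of 39, and those of Abcf1 and 1424929_a_at in 8 and 7 of 40. Without BXD14/TyJ, BXD15/TyJ or BXD2/TyJ, each alone, 1435872_at was no longer called. The cause of these changes was not tested. With the second H2-Ea probe set, the class II relations passed for 5 of 6 genes over all H2-Ea-expressing strains. The same held over the strains with title numbers from 1067, and both settings were chosen after seeing the data. Relations of the splitting probe set are a description and are not counted as passing.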
